A study of Mus musculus with 3 samples.

Results

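Plasmacytoid dendritic cells (pDC) in mouse melanoma were read from single-cell RNA of tumour leukocytes, as 76 cells of the 8139 that passed the filters on depth and mitochondrial RNA (10243 barcodes in all). A cell was taken as a pDC when it had at least 2 unique molecular identifiers (UMIs, each standing for 1 captured RNA molecule) of Siglech, at least 1 UMI of Ccr9, Cox6a2 or Klk1 together, and none of Cd3e, the T cell receptor subunit, or Adgre1, the macrophage marker F4/80. The cell also needed at least 1500 UMIs, with under 10% of them from mitochondrial genes. The day 3, day 7 and day 14 libraries held 37, 8 and 31 such cells. They were described against conventional dendritic cells (cDC) of the same libraries, taken as cells with at least 1 UMI of Flt3 and none of Siglech, of which there were 120, 127 and 135.

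Plasmacytoid dendritic cells look like secretory lymphocytes and carry the receptors Tlr7 and Tlr9 in endosomes, where these bind nucleic acids and signal through Myd88 and Irf7 to release type I interferon. The transcription factor Tcf4 sets and keeps their identity against Id2, which favours the cDC fate. In tumours pDC are known both as possible sources of interferon and as cells that often make little of it.

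All mice were C57BL/6 and carried subcutaneous tumours of B16F10, a melanoma line of that strain. All of them received Pmel-1 cytotoxic T lymphocytes (CTL), which recognise the melanoma antigen gp100 and had been activated in culture, by vein 9 days after the tumour cells were given. Tumours were taken 3, 7 or 14 days after the transfer, and CD45+ cells from 3 mice were pooled in equal numbers into 1 library per day. There was thus 1 sample per day, mice without transferred cells were not analysed here, and the day after transfer, the age of the tumour and the library cannot be told apart. Ages and sexes of the mice were not given in the sources used here.

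With 1 library per day no test of a condition was possible, and no p-value is given. Levels are UMIs of a gene per 1000000 UMIs (CPM) summed over the cells of a type, and every interval, other than those of differences between ratios, is an exact 95% interval; all of them cover counting error only, not the spread between cells or mice. The summed pDC held 406298, 87348 and 274523 UMIs at days 3, 7 and 14, so that 3 UMIs, used as the floor for a gene with none, stood for 7.38, 34.3 and 10.9 CPM. The median pDC had 10165, 11040.5 and 8667 UMIs, against 15618.5, 15551 and 14138 UMIs in the median cDC. No pDC barcode occurred in another library, whereas 17, 29 and 6 of the cDC barcodes did. The cDC gate was broad: the macrophage and monocyte gene Lyz2 stood at 49.2, 68.7 and 18.2 CPM in pDC, against 2516, 4085 and 2007 CPM in cDC, and asking for no Cd3e and no Adgre1 left 91, 80 and 93 of its cells.

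A pair of pDC stood apart. One day 3 cell had 44277 UMIs, 10.9% of all pDC UMIs of that day, and 118 UMIs of 8 type 1 cDC markers (Xcr1, Clec9a, Cadm1, Wdfy4, Tlr3, Batf3, Itgae and Naaa), where the next cell had 5. One day 7 cell had 17013 UMIs, 19.5% of that day's pDC UMIs, and 50 UMIs of 8 natural killer (NK) cell markers, where the next cell had 2. Both were found after the values were seen, and where a level of more than a few UMIs was seen to move by over 1.5 times without them it is given both ways. Without both cells the type 1 cDC markers summed to 130, 99.5 and 117 CPM and the NK markers to 91.2, 56.9 and 43.7 CPM at days 3, 7 and 14. Of 8 B cell markers 5 had no UMI, among them Ms4a1 and Cd79a. Other marker lists were not at 0. Without both cells the 6 markers of transitional dendritic cells summed to 351, 498 and 481 CPM in pDC, against 4651, 7363 and 4314 CPM in cDC; most of it was Crip1, at 347, 446 and 463 CPM in all pDC, while Axl and Cd81 had no UMI. The 12 monocyte or macrophage markers summed to 392, 554 and 514 CPM in pDC without both cells, against 4265, 5732 and 3030 CPM in cDC, and the 8 type 2 cDC markers to 1094, 1422 and 1206 CPM, against 702, 970 and 976 CPM in cDC. T cell, plasma cell and migratory dendritic cell markers summed to 213 to 315, 703 to 845 and 299 to 334 CPM in pDC without both cells. Mzb1 and Xbp1 made up most of the plasma cell sum, and Cd8b1 most of the T cell sum. The levels of these genes in pDC are given further on. In all pDC the T cell markers summed to 355 CPM and the migratory dendritic cell markers to 607 CPM at day 7. The part of such RNA in the results was not tested.

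The share of pDC among the filtered cells was lowest at day 7. The 37, 8 and 31 cells were 1.36% (0.960 to 1.87), 0.310% (0.134 to 0.611) and 1.09% (0.742 to 1.54) of the 2719, 2577 and 2843 cells of days 3, 7 and 14. The day 7 share was 4.38-fold lower than that of day 3 (2.01 to 10.9), and at day 14 it was 3.51 times as large as at day 7 (1.58 to 8.84). With a 5% limit on mitochondrial RNA day 14 stood at a log2 ratio of 1.22 to day 7, whose interval (-0.027 to 2.61) reached equal shares. Between days 14 and 3 the log2 ratio was -0.32 (-1.06 to 0.41), a difference not detectable with this number of cells. The order held within the dendritic cells, where pDC were 23.6% (17.2 to 31.0), 5.93% (2.59 to 11.3) and 18.7% (13.1 to 25.4) of pDC and cDC together. Per cDC, pDC were 4.89-fold fewer at day 7 than at day 3 (2.24 to 12.2) and 3.65-fold more at day 14 than at day 7 (1.64 to 9.18).

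**Figure D1:**
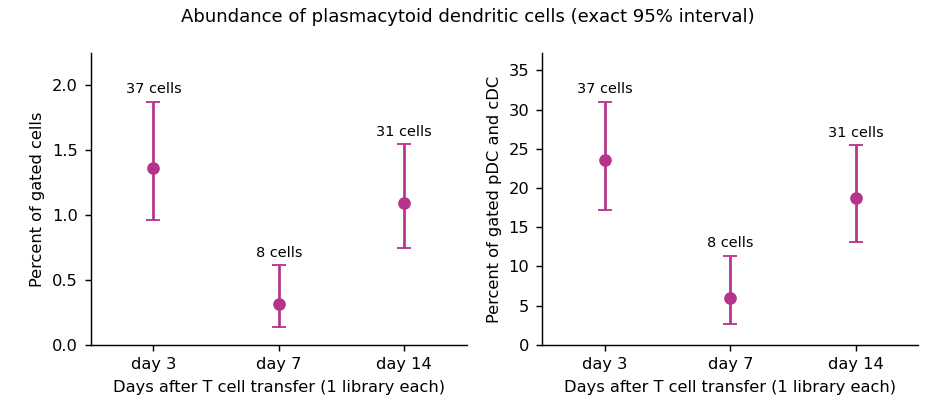
Share of plasmacytoid dendritic cells by days after T cell transfer, as a percent of all filtered cells (left) and of plasmacytoid and conventional dendritic cells together (right). Points are the 3 libraries and bars are exact 95% binomial intervals; the day 7 points, from 8 cells, lie at 0.310% and 5.93%, under those of the other days.

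The cells were chosen by their UMIs of the gate genes, which are given as a description only. Siglech, a sialic acid-binding inhibitory receptor of mouse pDC, was at 1004, 1488 and 1483 CPM at days 3, 7 and 14, with a median of 11, 16 and 13 UMIs per cell. No member sat at the limit of 2 UMIs, and 4, 0 and 2 of them had 3. Just outside it, 10, 0 and 5 filtered cells had 1 Siglech UMI, of which 3, 0 and 3 met the other conditions. Ccr9, the chemokine receptor for gut homing, was at 1378, 1156 and 1333 CPM in pDC and at 5.01, 4.80 and 1.71 CPM in cDC. It was found in all 76 members. Cox6a2, the heart and muscle form of a cytochrome c oxidase subunit, was found in 35, 7 and 29 of them, and Klk1, a tissue kallikrein whose reads may be shared with near-identical paralogs, in 30, 6 and 21. Of the cells with 2 or more Siglech UMIs, 0, 2 and 3 were no members, for Cd3e, for Adgre1 or for want of a second marker.

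Tcf4, which the gate did not use, was in every member. It was at 1701 (1576 to 1832), 2026 (1739 to 2348) and 1829 (1672 to 1996) CPM in pDC, against 104, 82.4 and 80.1 CPM in cDC. The lowest pDC had 429, 999 and 191 CPM. The plot of single cells shows Tcf4, Irf8 and Bst2 in all columns, while Klk1 of the gate genes and Klk1b27, Cd8a, Dntt and Klrd1 were in some cells only.

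**Figure D2:**
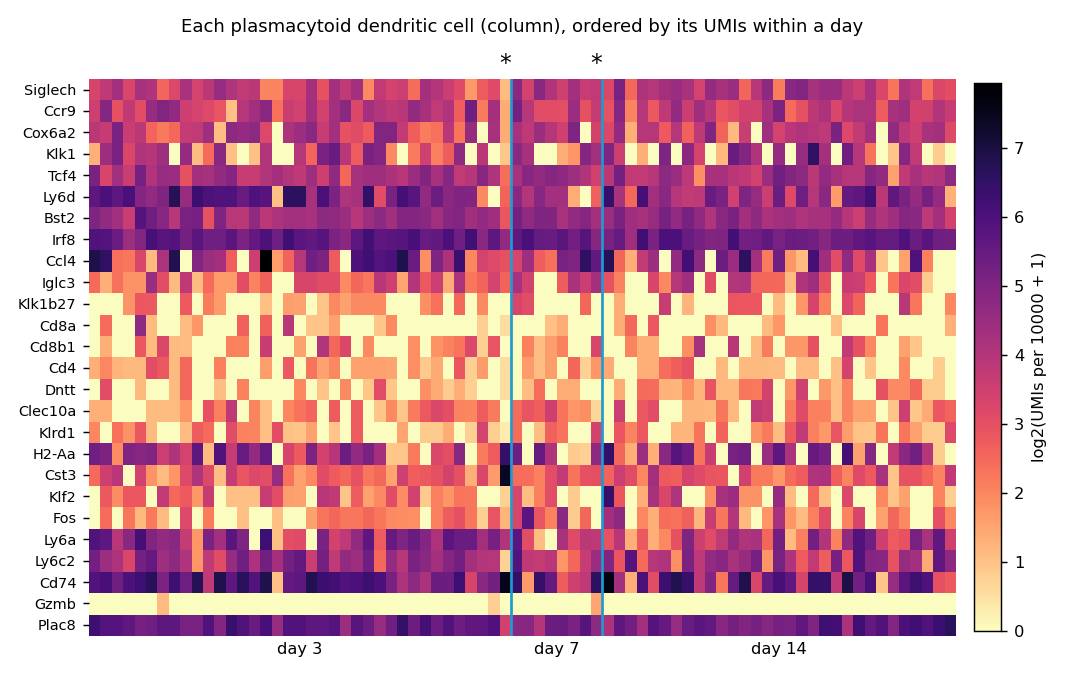
Level of 26 genes (rows) in each of the 76 plasmacytoid dendritic cells (columns), as log2 of UMIs per 10000 plus 1; blue lines part the days and cells run by their total UMIs within a day. Asterisks mark the cells with UMIs of type 1 conventional dendritic or natural killer cell markers; Irf8 and Bst2 are dark throughout, Gzmb is pale throughout.

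Promoters are shown for 2 genes of the gate and for Atp1b1, which stood among the genes farthest above cDC, because Tcf4 is an E-box binding factor. Sequences are from RefSeq on GRCm38.p6, from 250 bases before to 50 bases after the gene start, 5′ to 3′ on the gene's strand. Capitals mark the E-box forms CAGGTG and CAGATG, searched on both strands, so that CACCTG and CATCTG are the same motifs read from the other strand. Siglech lies at chr7:55767934-55768233 on the plus strand and has 2 matches, Klk1 at chr7:44225110-44225409 on the plus strand with 3, and Atp1b1 at chr1:164458306-164458605 on the minus strand with none.
Siglech: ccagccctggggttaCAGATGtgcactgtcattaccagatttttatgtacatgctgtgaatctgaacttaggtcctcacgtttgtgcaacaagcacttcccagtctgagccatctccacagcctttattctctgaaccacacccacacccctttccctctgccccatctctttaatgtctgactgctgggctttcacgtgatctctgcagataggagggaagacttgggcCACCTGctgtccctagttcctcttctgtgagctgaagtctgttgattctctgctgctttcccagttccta
Klk1: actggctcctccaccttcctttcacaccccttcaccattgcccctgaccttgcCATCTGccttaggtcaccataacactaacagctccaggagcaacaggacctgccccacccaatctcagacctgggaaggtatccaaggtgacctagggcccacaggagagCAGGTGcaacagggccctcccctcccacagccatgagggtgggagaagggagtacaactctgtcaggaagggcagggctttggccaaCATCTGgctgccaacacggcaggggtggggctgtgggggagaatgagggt
Atp1b1: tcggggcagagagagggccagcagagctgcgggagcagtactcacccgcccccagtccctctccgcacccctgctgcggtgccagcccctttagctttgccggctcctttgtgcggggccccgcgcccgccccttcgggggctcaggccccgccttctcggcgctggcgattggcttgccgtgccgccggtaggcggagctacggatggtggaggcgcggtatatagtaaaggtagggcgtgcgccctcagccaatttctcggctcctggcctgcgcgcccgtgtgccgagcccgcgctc
Of all 32851 promoters of that length in the table, 33.8% held at least 1 match. Of the 12 genes highest in pDC over cDC 7 had an entry, and 4 of these held a match. Dntt, which is among the 7 and not shown, had none. Of the 12 genes lowest in pDC over cDC 9 had an entry, and 2 of these held a match. A match is a run of letters, not a site of binding.

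Several lineage factors of pDC were above their level in cDC. A gene passed the size rule between types when it differed by at least 2-fold the same way at days 3 and 14 with both intervals clear of equal levels; of 7719 genes with enough UMIs, 8.39% passed as higher in pDC and 8.64% as lower. The gate chose the cells by type, so the counts describe the selected cells and are not evidence. Every count between types below is to be read beside these 8.39% and 8.64%. Of 12 lineage factors 7 were higher in pDC: Tcf4, Spib, Runx2, Bcl11a, Irf8, Mef2c and Myb. Spib, an Ets factor of pDC development, was at 308, 218 and 266 CPM at days 3, 7 and 14, against 12.3, 5.67 and 6.43 CPM in cDC. Runx2, needed in mouse pDC to leave the marrow, was at 564, 664 and 670 CPM in pDC, against 32.3, 17.9 and 38.1 CPM in cDC. Both were more than 10 times their level in cDC in each library. Irf8, which type 1 cDC need too, was at 4669, 4534 and 4397 CPM in pDC, against 1699, 1469 and 1195 CPM in cDC.

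Factors that oppose the pDC fate or mark cDC ran the other way. Of 7 such genes 4 passed as lower in pDC, namely Id2, Nfil3, Batf3 and Zbtb46, and none as higher. Id2 was at 54.1, 45.8 and 25.5 CPM in pDC, or 14.2 CPM at day 7 without the cell with NK cell markers, against 826, 742 and 824 CPM in cDC. Batf3, needed for type 1 cDC, had 4 UMIs in pDC, all in the day 3 cell with type 1 cDC markers, against 130, 119 and 150 CPM in cDC. Zbtb46, a factor of the cDC line, had 2 UMIs in pDC, against 29.1, 36.2 and 31.3 CPM in cDC. Irf4, Klf4 and Relb did not pass.

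Of 32 surface and other identity genes 30 passed as higher in pDC; the others were Cd8a and Ptprc, the CD45 gene on which the cells were isolated. Bst2, the interferon-inducible antigen of the antibody PDCA-1, was at 2156, 2461 and 2084 CPM in pDC, against 218, 170 and 111 CPM in cDC. Ly6d, a small anchored surface protein also found on early B cells, was at 3876, 1133 and 2845 CPM in pDC, against 3.19, 0.436 and 7.28 CPM in cDC. Cd300c, an activating receptor, was at 335, 332 and 335 CPM in pDC, against 2.73, 3.05 and 3.00 CPM in cDC. The 3 libraries varied little for Bst2 and Cd300c, and Ly6d was lowest at day 7. Lair1, an inhibitory collagen receptor, was at 906, 973 and 965 CPM in pDC, against 38.2, 24.4 and 28.7 CPM in cDC. Atp1b1, a subunit of the sodium pump, was at 564, 641 and 514 CPM in pDC, against 3.64, 1.31 and 0.428 CPM in cDC.

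Several genes read as lymphocyte genes were abundant in pDC. Of 11 lymphoid-type transcripts with enough UMIs 8 passed as higher in pDC (Dntt, Ighm, Igkc, Iglc1, Iglc2, Iglc3, Il7r and Notch1) and Cd2 as lower, while Rag1, Rag2 and Pax5 had no UMI. Ighm, the heavy chain of IgM, was at 1063, 1110 and 1016 CPM at days 3, 7 and 14, against 113, 140 and 116 CPM in cDC. Iglc3, a lambda light chain constant gene, was at 623, 1030 and 627 CPM in pDC, against 0.455, 0 and 4.28 CPM in cDC and 0 CPM in day 3 T cells (537 cells with 2 or more Cd3e UMIs and none of Siglech). The 3 Iglc genes are near-identical, and how reads were split among them is uncertain. Dntt, the terminal transferase that adds bases to antigen receptor joints, was at 106, 103 and 255 CPM, and none of the 382 cDC had a UMI of it.

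T cell coreceptor RNA was present in cells that the gate had chosen for want of Cd3e, so that little RNA of the T cell receptor complex is in part given by the choice. Cd4 was at 172, 183 and 135 CPM in pDC, against 4.10, 3.49 and 9.00 CPM in cDC. Cd8b1 was at 256, 286 and 255 CPM in pDC, against 20.04, 10.0 and 30.8 CPM in cDC. The day 7 cell with NK cell markers held 15 of the day 7 UMIs, and without it that level was 142 CPM. In the same pDC, Cd3d, a subunit of the T cell receptor complex, was at 4.92, 11.4 and 3.64 CPM and the constant gene Trac at 0, 0 and 3.64 CPM. Day 3 T cells had 444 CPM of Cd8b1 and 10.1 CPM of Cd4. Of the 31 day 14 pDC 10 had UMIs of both Cd8b1 and Cd4, and of the 37 day 3 pDC 15 did; mouse pDC are known to carry these coreceptors on some cells.

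The muscle form Cox6a2 was high by the choice of cells, and the other subunits did not differ from cDC by the size rule. None of 11 measured cytochrome c oxidase subunits passed in either direction, beside 8.39% of all 7719 genes as higher and 8.64% as lower. With so few subunits a count of 0 does not set them apart from all genes. The rule does not cover day 7 or smaller differences. Cox6a1, the common form, was at 177, 103 and 160 CPM in pDC, against 186, 259 and 175 CPM in cDC. Other genes best known from muscle were above cDC as well, a group chosen after the values were seen. Atp2a1, the calcium pump of fast muscle, was at 130, 172 and 157 CPM in pDC, against 0.911, 0 and 1.71 CPM in cDC. Sh3bgr was at 167, 57.2 and 197 CPM in pDC, or 28.4 CPM at day 7 without the cell with NK cell markers, against 0.911, 0 and 0 CPM in cDC, and Pgam2, the muscle phosphoglycerate mutase, at 199, 22.9 and 106 CPM in pDC, against 0 CPM at each day in cDC.

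Genes of nucleic acid sensing were partly above cDC, while no type I interferon RNA was found. Of 21 measured sensing genes 6 passed as higher in pDC (Tlr7, Tlr12, Unc93b1, Slc15a4, 5430427O19Rik and Pik3ap1) and 2 as lower (Irf5 and Myd88). Tlr7 was at 133, 80.1 and 94.7 CPM at days 3, 7 and 14, against 4.10, 6.10 and 5.57 CPM in cDC. Unc93b1, which carries such receptors to endosomes, was at 820, 916 and 820 CPM in pDC, against 292, 364 and 312 CPM in cDC. Slc15a4, an endolysosomal transporter that Tlr7 and Tlr9 signalling needs, was at 96.0, 57.2 and 127 CPM in pDC, against 30.5, 29.7 and 34.7 CPM in cDC. 5430427O19Rik, a gene known by its clone name only in the files, was at 81.2, 114 and 47.4 CPM in pDC, against 10.0, 13.5 and 6.85 CPM in cDC. Tlr9 had 0, 1 and 1 UMIs, within the floor. The adaptor Myd88 was at 24.6, 57.2 and 25.5 CPM in pDC, against 87.0, 97.2 and 64.3 CPM in cDC.

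Of 21 interferon genes 19 had no UMI in any pDC, among them Ifnb1 and every Ifna gene of the list; Ifnl2 had 1 UMI and Ifng 4. A count of 0 allows up to 7.38, 34.3 and 10.9 CPM at days 3, 7 and 14, and members of the Ifna family are so alike that reads could be lost between them. Levels under these limits were not detectable at this depth.

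A part of the secretory genes stood above their level in cDC. Of 22 measured genes of the secretory pathway 7 passed as higher in pDC and none as lower: Mzb1, Xbp1, Sec61a1, Sec11c, Herpud1, Spcs2 and Dnajb9. Mzb1, a chaperone of antibody-secreting cells, was at 229, 240 and 233 CPM in pDC, against 0, 0 and 3.00 CPM in cDC. Xbp1, the factor of the unfolded protein response, was at 529, 378 and 444 CPM in pDC, against 123, 164 and 155 CPM in cDC. Of 18 lysosomal genes Ctsb, Ctsh and Grn passed as higher, and Cd63, Cst3 and Ifi30 as lower. Progranulin (Grn), which helps deliver ligands to Tlr9, was at 1021, 1191 and 951 CPM in pDC, against 225, 240 and 162 CPM in cDC.

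Some signalling genes shared with B cells were higher in pDC too. Of 17 genes of receptor adaptors and B cell receptor-like signalling 7 passed as higher in pDC (among them Tyrobp, Blnk, Cd79b, Pik3ap1, Ptpn6 and Fyn) and Sh3bp1 as lower. Blnk, the B cell linker that pDC receptors also use, was at 231, 183 and 266 CPM in pDC, against 10.9, 2.62 and 4.71 CPM in cDC. Tyrobp, the adaptor through which Siglec-H signals, was at 3623, 4213 and 4098 CPM in pDC, against 1234, 1436 and 1088 CPM in cDC. Both levels varied little between the 3 libraries.

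Antigen presentation to T helper cells was lower in pDC than in cDC at the RNA level. Of 10 class II genes 8 passed as lower and none as higher. H2-Aa was at 2525, 1271 and 2102 CPM in pDC, against 7239, 7104 and 6731 CPM in cDC. The invariant chain Cd74 was at 6936, 3938 and 4903 CPM in pDC, or 2588 CPM at day 7 without the cell with NK cell markers, against 15318, 14450 and 13066 CPM in cDC. Of 14 class I genes H2-T23 and H2-Q7 passed as higher; class I genes are close paralogs, so their reads may be shared. Of 13 costimulation and checkpoint ligands 7 passed as lower, among them Cd80, Cd86, Cd83 and Cd274. Cd274, the gene of PD-L1, was at 34.5, 0 and 14.6 CPM in pDC, against 230, 170 and 155 CPM in cDC. Ido1, a tryptophan-degrading enzyme reported in some tolerogenic pDC, had no UMI in pDC.

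**Figure D3:**
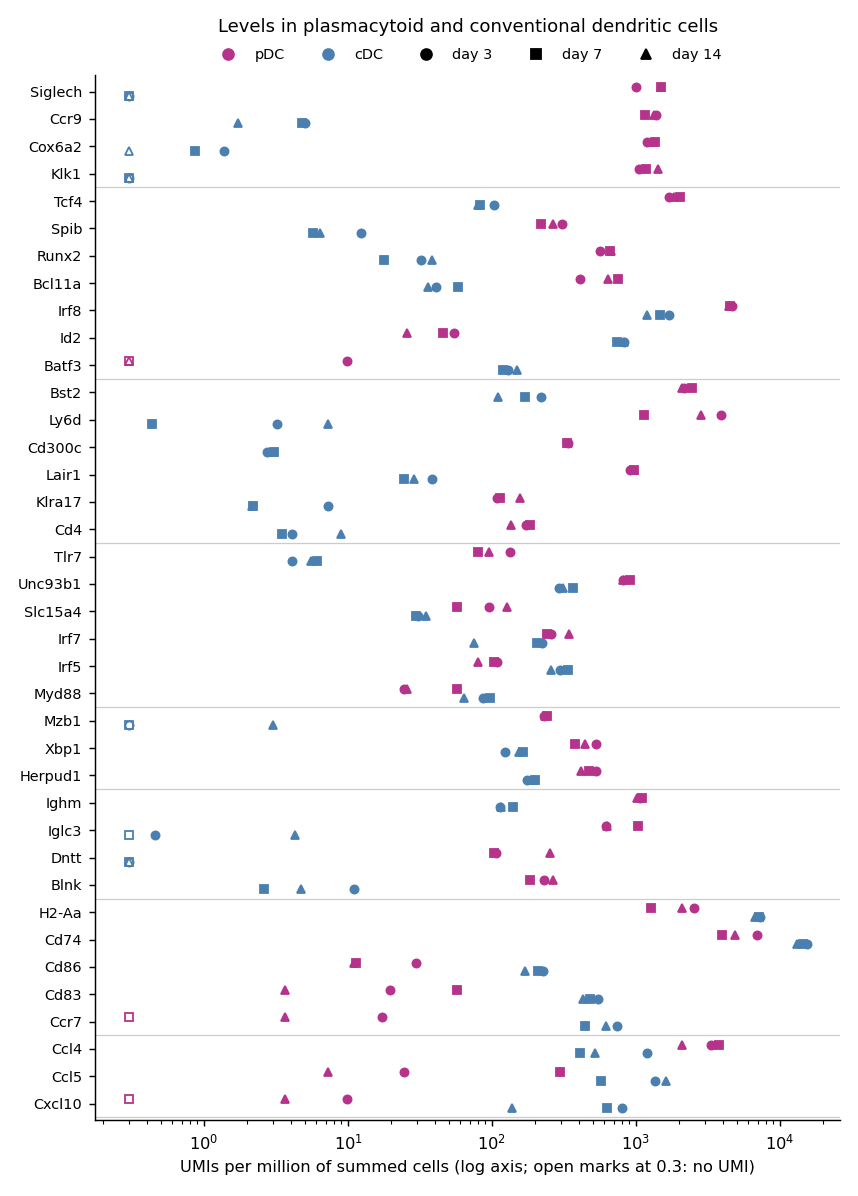
Levels of 38 genes in plasmacytoid (magenta) and conventional (blue) dendritic cells, in CPM of the summed cells of each of the 3 libraries on a log axis; open marks at 0.3 had no UMI. Lines part the gate genes, lineage factors, surface genes, sensing, secretory, lymphoid-type, presentation and chemokine genes; Ly6d and Iglc3 show gaps of over 100-fold at days 3 and 14, and H2-Aa and Ccr7 lie to the left of conventional dendritic cells.

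Cytokines and chemokines differed from cDC in both directions. Of 18 measured cytokines and chemokines 9 passed as lower in pDC and Ccl4 as higher. Ccl4, an inflammatory chemokine, was at 3330, 3801 and 2087 CPM in pDC, against 1196, 411 and 517 CPM in cDC. It was uneven between cells: the median day 3 cell had 1654 CPM and 1 cell held 236 of the 1353 UMIs of that day. Ccl5 was at 24.6, 298 and 7.29 CPM in pDC, or 71.1 CPM at day 7 without the cell with NK cell markers, against 1353, 576 and 1612 CPM in cDC. Il12a, a subunit of interleukin 12 and 35, was at 12.3, 45.8 and 32.8 CPM in pDC, with 18 UMIs in all, and had none in cDC. Gzmb, which human pDC make in quantity, had 2, 3 and 0 UMIs, those of day 7 in the cell with NK cell markers, against 1994 CPM in day 3 T cells.

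Receptors set the types apart in both directions. Of 17 cytokine receptors Csf2rb2, Il7r, Ifnar1 and Ifnar2 passed as higher in pDC, and Ifngr1, Csf2ra, Csf1r, Tnfrsf1b and Kit as lower. Ifnar2, a chain of the type I interferon receptor, was at 519, 378 and 459 CPM in pDC, against 124, 127 and 120 CPM in cDC. Ifngr1, the ligand-binding chain for interferon-γ, was at 22.2, 114 and 21.9 CPM in pDC, or 28.4 CPM at day 7 without that cell, against 143, 220 and 244 CPM in cDC. Of 16 homing receptors and related genes 4 passed as higher, among them Selplg, S1pr4 and the transcription factor Klf2. Ccr7, Ccr2, Ccr1 and Itgae passed as lower. Ccr7, which leads dendritic cells to lymph nodes through lymph, was at 17.2, 0 and 3.64 CPM in pDC, against 744, 440 and 618 CPM in cDC.

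Cell cycle RNA was lower in pDC than in cDC. Of 22 cell cycle genes 17 passed as lower in pDC than in cDC and none as higher, and they summed to 970, 641 and 798 CPM, against 2810, 2051 and 2774 CPM in cDC. Of 18 genes of handling stress and early response 9 passed as lower, and none as higher.

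Between days 14 and 3 a smaller fold was asked for, so the counts cannot be set beside those of the types. A gene passed the size rule between days when it differed by at least 1.5-fold with the interval clear of equal levels; of 4477 genes with 20 or more UMIs 124, or 2.77%, were higher at day 14 and 189, or 4.22%, lower. Since each interval is a 95% interval over many genes, counting error alone puts some genes past this rule. Without the pair of cells that stood apart 91 were higher and 183 lower of 4304. The median log2 ratio of all genes was -0.02, and -0.05 without them. With CPM outside mitochondrial and ribosomal protein genes 151 were higher and 155 lower, and with TMM scaling 139 and 166. Of the 124 higher genes 13 were also higher in cDC and 3 lower there, and of the 189 lower genes 34 were also lower and 1 higher. Of all 4477 genes 123 were higher and 148 lower in cDC by the same rule.

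Some identity genes differed between the days, beside the 2.77% and 4.22% of all genes that were higher and lower. Of 12 lineage factors Bcl11a and Ikzf1 were higher at day 14 and none lower, and without the pair of cells only Ikzf1 passed. Bcl11a, needed for pDC development, was at 406, 756 and 641 CPM at days 3, 7 and 14, a log2 ratio of 0.66 for day 14 over day 3 (0.34 to 0.97) and 0.55 without the pair. Ikzf1 was at 185, 309 and 310 CPM, giving a log2 ratio of 0.75 (0.28 to 1.21). Tcf4 had a log2 ratio of 0.10 (-0.06 to 0.27). Of 32 identity genes 4 were higher (Klk1b27, Ptprf, Mctp2 and Cdh1) and 2 lower (Ly6a and Cd8a). Without the pair Klk1b27 was the only one higher and Ly6d joined the lower ones, with a log2 ratio of -0.59 in place of -0.45. Ly6a, the interferon-inducible antigen Sca-1, was at 2722, 1076 and 1792 CPM, giving a log2 ratio of -0.60 (-0.76 to -0.45), and in cDC it was lower at day 14 as well.

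Dntt was among the genes that differed most. Its 106, 103 and 255 CPM gave a log2 ratio of 1.27 for day 14 over day 3 (0.70 to 1.85), and 1.17 without the pair. The share of pDC with a UMI of it was 48.6% at day 3, 4 of 8 cells at day 7 and 77.4% at day 14, and 31.9%, 39.5% and 62.3% with each cell thinned to 5000 UMIs, which left out 1 day 7 pDC. T cells, at a median of 12761, 10438 and 9118 UMIs, had 0%, 0% and 0.148%.

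The 10 genes highest at day 14 over day 3 by the bound nearest to equal included Fabp5, AY036118, Pir, Dntt, Zfp36l2, Fos, Jun, Ogt and Hmgcs1, and each passed without the pair of cells too. Fabp5, a fatty acid-binding protein, was at 39.4, 0 and 146 CPM at days 3, 7 and 14, a log2 ratio of 1.89 (1.02 to 2.82), while in cDC it had 1369, 817 and 1315 CPM. It came from 10 of the day 14 and 12 of the day 3 cells, and without the cell that held most of its UMIs at each day the log2 ratio was 0.97 (-0.12 to 2.09), which does not pass. Hmgcs1, an early enzyme of cholesterol synthesis, was at 170, 229 and 317 CPM, giving a log2 ratio of 0.90 (0.43 to 1.38). Pir, a nuclear iron protein, was at 76.3, 149 and 211 CPM, giving a log2 ratio of 1.47 (0.82 to 2.15). Day 7 lay between the others for Hmgcs1 and Pir, and Fabp5 had no UMI there. AY036118 was also higher in cDC, with log2 ratios of 1.68 in pDC and 1.48 in cDC.

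The 10 lowest were Grasp, Cst3, Atf3, Kdr, Rhob, Gbp4, Serpinb6b, Icam1, Serpina3g and Erh. Cst3, the protease inhibitor that cDC make in quantity, and Serpina3g, which has close paralogs, rested on the day 3 cell with type 1 cDC markers. Their log2 ratios were -1.77 and -1.32 with it and 0.16 and 0.12 without the pair. The other 8 stayed past the rule. Grasp, a receptor scaffold protein, was at 118, 80.1 and 10.9 CPM, giving a log2 ratio of -3.43 (-5.76 to -1.80), and its day 3 UMIs came from 9 cells. Kdr, the VEGF receptor 2, was at 113, 68.7 and 21.9 CPM, giving a log2 ratio of -2.37 (-3.89 to -1.14), and was lower in cDC too. Icam1, the adhesion partner of LFA-1, was at 130, 80.1 and 43.7 CPM, giving a log2 ratio of -1.58 (-2.62 to -0.65). The day 7 level of each of these 3 lay between those of days 3 and 14.

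**Figure D4:**
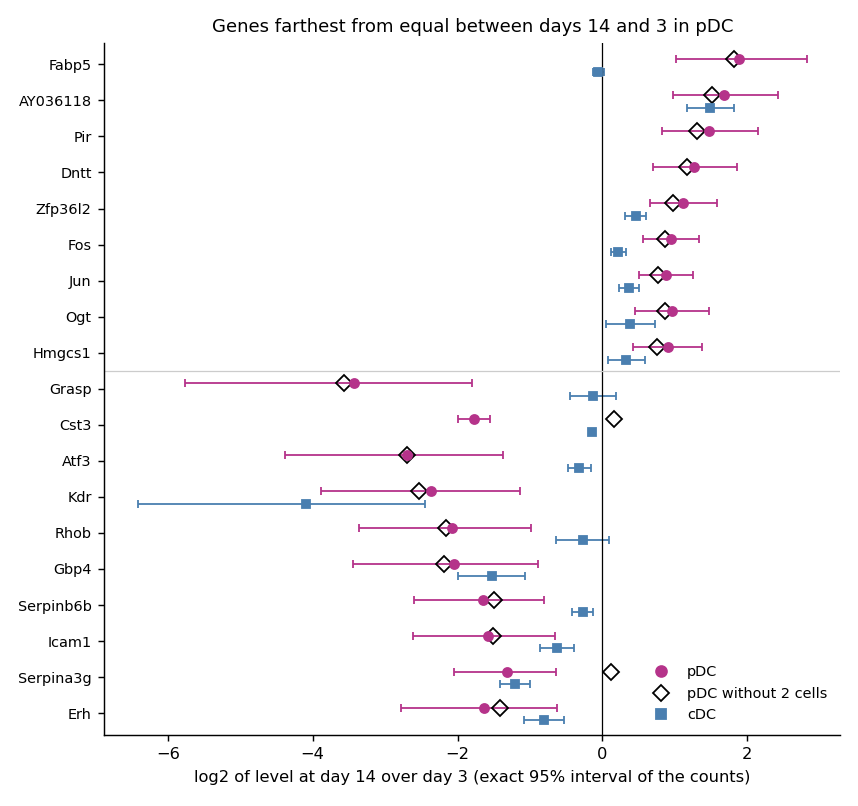
Log2 ratio of day 14 over day 3 for genes among the 10 highest and the 10 lowest in plasmacytoid dendritic cells (magenta), in the same cells without the 2 that carry markers of another type (diamonds) and in conventional dendritic cells (blue); bars are exact 95% intervals of the counts. Pir and Dntt have no blue mark, and the diamonds of Cst3 and Serpina3g sit at 0.16 and 0.12.

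Interferon response genes were compared because CTL release interferon-γ. Of 13 measured interferon-γ response genes 6 were lower at day 14 in pDC (Cxcl9, Gbp2, Gbp4, Irf1, Igtp and Tap1) and none higher, with a median log2 ratio of -0.64. Of all 4477 genes 4.22% were lower in pDC and 2.77% higher, and without the pair of cells 183 of 4304 were lower. Without the pair of cells Gbp4, Irf1, Igtp and Tap1 were lower of 11 measured, with a median of -0.45; Cxcl9 had 60 UMIs in 2 day 3 cells. In cDC 9 genes of the list were lower and the median was -1.20, while 148 of all 4477 genes were lower there. The cDC sums held 2196098 and 2334585 UMIs at days 3 and 14, more than those of pDC. Their intervals were thus narrower, and the counts of genes past the rule cannot be set side by side. Irf1, an interferon-induced factor, was at 364, 263 and 233 CPM in pDC at days 3, 7 and 14, a log2 ratio of -0.64 (-1.09 to -0.21), against -1.10 in cDC. Tap1, the peptide transporter of class I presentation, was at 401, 183 and 226 CPM, giving a log2 ratio of -0.83 (-1.28 to -0.40), against -0.25 in cDC. Of 12 genes with a difference of these log2 ratios, pDC minus cDC, the interval was above 0 for 3 and below for 1, Tap1 at -0.58 (-1.02 to -0.14); over all genes 4.86% were above and 5.37% below. Gbp4, an interferon-induced GTPase, was at 106, 34.3 and 25.5 CPM, giving a log2 ratio of -2.05 (-3.45 to -0.89).

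The median of the type I response list lay nearer to 0 in pDC than in cDC. Of 16 measured genes 1 was higher (Ifi27l2a, not without the pair of cells) and 2 lower (Slfn5 among them), with a median of -0.21, or -0.24 without the pair. In cDC 9 were lower and the median was -0.76, while 148 of all 4477 genes were lower there. Over the same 4477 genes 124 were higher and 189 lower in pDC. The UMI sums of cDC were larger and their intervals narrower, so the 2 counts are not alike. For 13 of the 16 the pDC log2 ratio lay above that of cDC, and for 4 the interval of the difference was above 0 and for none below; over 4448 genes 4.86% were above and 5.37% below. Irf7, the factor that drives interferon genes, was at 258, 240 and 342 CPM in pDC, against 223, 207 and 75.4 CPM in cDC. Its log2 ratio was 0.41 in pDC (-0.01 to 0.82) and -1.57 in cDC, a difference of 1.97 (1.499 to 2.44). Between the types Irf7 differed by no more than counting error at day 3, with a log2 ratio of pDC over cDC of 0.21 (-0.11 to 0.52), and was 4.54-fold higher in pDC at day 14.

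**Figure D5:**
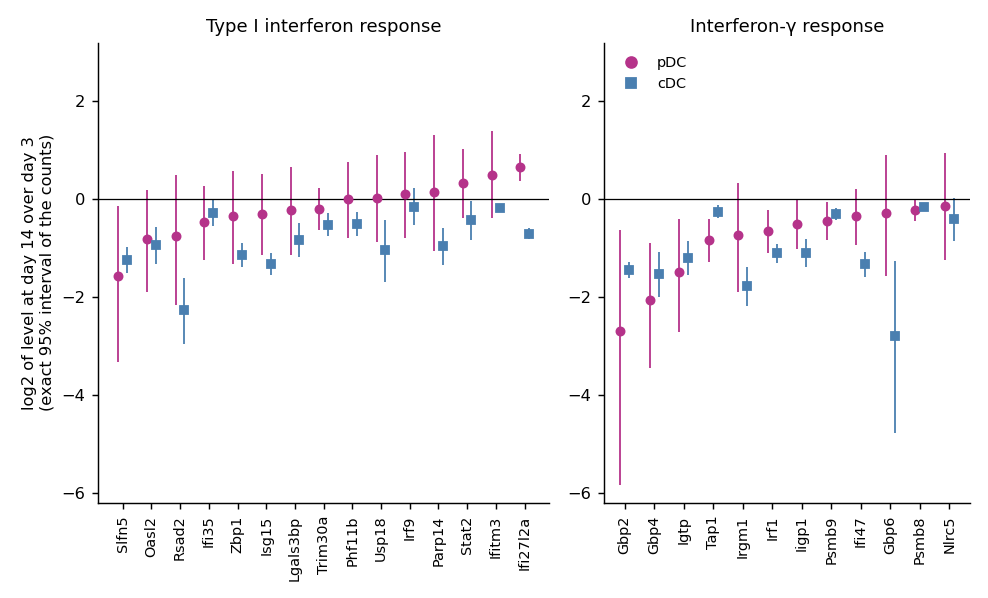
Log2 ratio of day 14 over day 3 for 15 type I interferon response genes (left) and 12 interferon-γ response genes (right) in plasmacytoid (magenta) and conventional (blue) dendritic cells; bars are exact 95% intervals of the counts. For 13 of the 15 genes on the left the magenta point is the higher of the pair.

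Homing receptors and related genes were higher at day 14 in part. Of 12 measured genes 5 were higher and none lower, beside 2.77% and 4.22% of all 4477 genes. Among the 5 were Cxcr3, Ccr2, Itgal and the transcription factor Klf2. The median log2 ratio of the 12 was 0.52, against -0.11 in cDC. Without the pair of cells Cxcr3 and Ccr2 passed as higher, beside 91 of all 4304 genes, and the median was 0.49. Cxcr3, the receptor for interferon-induced chemokines such as Cxcl9 and Cxcl10, was at 39.4, 91.6 and 94.7 CPM at days 3, 7 and 14, a log2 ratio of 1.27 (0.31 to 2.26). Ccr2, the receptor for Ccl2, was at 44.3, 114 and 98.4 CPM, giving a log2 ratio of 1.15 (0.24 to 2.10). Without the cell with NK cell markers their day 7 levels were 56.9 and 14.2 CPM. Both rested on few cells, 11 and 10 at day 14 against 12 and 8 at day 3. For Klf2, 1 day 14 cell held 51 of the 168 UMIs.

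Ccl4 and Ccl3 were lower at day 14, the only 2 of 5 measured cytokines and chemokines past the rule, and stayed so without the pair of cells. The counts given here stand beside the 2.77% of all 4477 genes that were higher and the 4.22% lower. Ccl4 had a log2 ratio of -0.67 (-0.82 to -0.53), and Ccl3 was at 231, 309 and 131 CPM, giving a log2 ratio of -0.82 (-1.42 to -0.25). Both were lower in cDC as well. Vsir, the gene of the checkpoint protein VISTA, was the only costimulation or checkpoint gene of 3 measured to pass. It was at 24.6, 57.2 and 87.4 CPM, giving a log2 ratio of 1.83 (0.71 to 3.06). Of 15 genes of B cell-like signalling 2 were lower; Prkcd, a protein kinase C, was 1 of them, at 320, 389 and 164 CPM.

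The remaining lists are given beside the 2.77% and 4.22% of all 4477 genes that were higher and lower. Counts of 0 in lists this short do not set them apart from all genes. None of 14 sensing genes, 22 secretory genes, 11 cytochrome c oxidase subunits and 5 cell cycle genes passed; without the pair of cells Pdia6 of the secretory list was lower. None of 8 measured class II genes passed, and their median of -0.26 turned to 0.32 over 7 genes without the pair. Of 14 class I genes Tap1 and Tap2 were lower. Among 17 genes of handling stress and early response Fos and Jun were higher and Egr1, Atf3, Hspa1b and Dnajb1 lower at day 14, with a median of -0.08. Fos was at 249, 1168 and 477 CPM and Jun at 266, 355 and 488 CPM at days 3, 7 and 14. How far tissue handling moves with the days was not tested. Of the genes best known from muscle Pgam2 was lower at day 14, with a log2 ratio of -0.92 (-1.58 to -0.29).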

How the data were processed

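Single-cell 3′ libraries (10x Genomics Chromium v3.1) of CD45+ tumour cells were made from 3 pooled mice per day; the labels name a cell sorter in one place and magnetic beads in another. The deposited matrices hold UMI counts, whole numbers for each gene in each barcode. The submitters' processing notes name Cell Ranger 4.0.0 and the build mm10, and no annotation release is given in the sources used here. Whether barcodes had been filtered for doublets before deposit is not given either.

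From the 32285 genes, cells were gated by UMIs as described, and counts were summed per type and library and divided by all UMIs of the sum (CPM). Ratios have exact conditional binomial intervals, shares Clopper-Pearson intervals and CPM Poisson intervals at 95%, for counting error only. Genes entered the comparison of days with 20 UMIs over both days, and that of types with 20 UMIs over both types at each of days 3 and 14. The 7 gate genes were left out of the comparison of types. In that of days those with enough UMIs were counted. A gene without UMIs was set to the floor of 3 counts. Differences of log2 ratios have intervals from a normal approximation on log counts. Named genes were the 10 per direction between days and 12 per direction between types with the bound farthest from equal, among genes with 50 UMIs found in 10% of the cells of the higher group, leaving out mitochondrial, ribosomal protein, Gm-numbered, Rik, receptor segment, melanoma and erythroid genes, plus up to 6 per list in order of their UMIs in pDC and a few set by name; single cells, muscle-type genes, the coreceptors and other members of the lists were chosen after their values were seen. The members and all gene lists were chosen with earlier results of these data known.

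Scripts were tested on simulated data. An automatic doublet caller marked 2, 9 and 3 of 3510, 2985 and 3432 scored cells. Why it marked so few was not tested, and no cell was removed. Leaving out the highest scores, 99, 71 and 94 cells, is an alternative and took no pDC. Python 3.11.15, numpy 2.4.6, scipy 1.17.1, pandas 2.3.3, scanpy 1.11.5 and matplotlib 3.10.9 were used, and edgeR 4.0.16 in R 4.3.3 for an alternative TMM scaling only. Alternatives changed the gate, the filters, the scaling and the cells used. Promoters are from RefSeq, matched by symbol. Some genes that the rules named are not reported here.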

Additional observations from a re-analysis of the deposited data

Results flagged for a closer look

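For the genes given here the difference between days 14 and 3 passed the size rule in opposite directions in pDC and cDC. There was 1 library per day, so the difference between the types was not tested. Slpi, a secreted protease inhibitor, was at 276, 641 and 168 CPM in pDC at days 3, 7 and 14, against 23.7, 50.6 and 42.4 CPM in cDC. Its log2 ratio of day 14 over day 3 was -0.72 in pDC and 0.84 in cDC, a difference of -1.56 (-2.25 to -0.87), and -0.88 in pDC without the pair of cells that carry markers of another type. Lgmn, a lysosomal protease, was at 56.6, 91.6 and 106 CPM in pDC, against 264, 119 and 145 CPM in cDC. Its log2 ratios were 0.90 in pDC and -0.87 in cDC, a difference of 1.77 (0.95 to 2.58), and 0.86 in pDC without the pair.

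Ifi27l2a, an interferon-induced gene with a close paralog, passed in pDC with the pair of cells only. It was at 522, 355 and 820 CPM in pDC (213 CPM at day 7 without the pair), against 723, 677 and 445 CPM in cDC. Its log2 ratios were 0.65 in pDC and -0.70 in cDC, and 0.58 in pDC without the pair.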

How the results depend on the processing

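No paired analysis was possible because each day has 1 library. The ratios of pDC shares between days kept their direction under each alternative: 1000 or 3000 UMIs per cell, a 5% mitochondrial limit, no second marker, and without shared barcodes, high doublet scores or the pair of cells. With the 5% limit, which left 28, 8 and 20 pDC, the interval of day 14 over day 7 reached equal shares, at a log2 ratio of 1.22 (-0.027 to 2.61); under the others each interval stayed on its side. Siglech at 3 UMIs changed no cell, since no member had 2, and says nothing here. The log2 ratios of the shares ranged over -2.35 to -1.79 for day 7 over day 3, 1.22 to 2.02 for day 14 over day 7 and -0.57 to -0.28 for day 14 over day 3. With a minimum of 100 UMIs per gene 33 genes were higher and 48 lower at day 14 in pDC, and 259 were higher in pDC than in cDC. Fewer genes were tested then, 1065 between days. Between types 648 genes were higher and 667 lower in pDC as reported, and 558 and 759 with TMM scaling. Over all alternatives, narrower cDC gates among them, 561 values of named genes between types stayed within their reported interval. Another 43 moved outside it, and none changed direction. The values that stayed include settings that could not move them, namely Siglech at 3 UMIs and the changed minimums of UMIs per gene. These genes were named for a bound far from equal in the same data, so their kept direction is no evidence. Mzb1 at day 14 moved from a log2 ratio of 6.28 to 4.34 with the mean over single cells. Without the cell that held most UMIs of each gene 80 genes were higher at day 14. Cst3 turned to a log2 ratio of 0.081 in that setting, Fabp5 fell short of the rule at 0.97 and Serpina3g at -0.27, and Cst3 and Serpina3g to 0.16 and 0.12 without the pair of cells, an alternative added after the data were seen. Depth limits the reading: 8 pDC at day 7 leave a floor of 34.3 CPM, and 76 cells give no view of states within the type.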

Other observations

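Some genes used as markers of other dendritic cells were also read in pDC. Clec10a, a lectin of type 2 cDC, was at 276, 401 and 350 CPM in pDC at days 3, 7 and 14, against 82.9, 146 and 143 CPM in cDC. Klrd1, the CD94 receptor of NK cells, was at 190, 321 and 288 CPM in pDC, or 171 CPM at day 7 without the cell with NK cell markers, against 143, 201 and 174 CPM in cDC. Clec9a, a receptor for dead cells, was at 93.5, 34.3 and 61.9 CPM in pDC, against 83.8, 92.9 and 70.7 CPM in cDC, and came from 16, 3 and 13 pDC. Of the 8 type 2 cDC markers 2 passed as higher in pDC than in cDC (Clec10a and Cd7) and 3 as lower (Cd209a, Itgam and Mgl2). Cd209a was at 22.2, 11.4 and 21.9 CPM in pDC, against 140, 213 and 156 CPM in cDC. Sirpa, an inhibitory receptor on type 2 cDC and pDC, was at 118, 160 and 197 CPM in pDC, with a log2 ratio of 0.74 for day 14 over day 3 (0.15 to 1.33) and 0.60 without the pair of cells.

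Over all genes 8.39% were higher and 8.64% lower in pDC than in cDC. Between days 2.77% were higher and 4.22% lower at day 14. Of 13 genes of suppression and tolerance 3 were higher in pDC than in cDC (Tgfbr1, Tgfbr2 and Lgals1), 7 were lower, and none of 5 passed between days. Tgfbr1, a receptor for the suppressive cytokine TGF-β, was at 66.5, 45.8 and 51.0 CPM in pDC, against 10.9, 9.16 and 7.71 CPM in cDC. Lag3, an inhibitory receptor better known from T cells, was at 202, 389 and 157 CPM in pDC, against 18.7, 14.4 and 19.3 CPM in cDC, and day 3 T cells had 82.6 CPM. Of 17 survival and death genes 4 were lower in pDC than in cDC and none higher. Of 12 such genes Bak1, Pmaip1 and Bcl2a1b were lower at day 14 than at day 3, and of the 10 measured without the pair of cells Bak1 and Birc3 were. Bcl2a1b, whose paralogs share reads, had 35 UMIs in 3 day 3 cells. Of 16 glycolysis and hypoxia genes Pfkl, Pfkp and Pgam1 were lower at day 14 than at day 3, and without the pair of cells none of 15 was lower and Pgk1 was higher.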
